A study of Mus musculus with 12 samples.

Results

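The 35 genes described here are mouse genes of glycolysis and of the response to low oxygen, chosen by name with earlier results of these data known. They comprise 18 glycolytic enzymes, 5 genes of glucose and lactate transport and of pyruvate routing, 3 genes of oxygen sensing and 9 further hypoxia response genes. All 35 were found among the 23303 gene features of the deposited tables, and 32 had an entry of their own in every library. Eno1 was measured jointly with its near-identical copy Eno1b in all 12, Pgk1 had no value in WT non-TFH replicate 1, and Hif1a had no entry of its own in KO TFH replicate 3. RNA was sequenced from splenic CD4 T cells of C57BL/6 mice. Sorted CXCR5+PD-1+ cells are called T follicular helper (TFH) cells, and sorted CXCR5-PD-1- cells are called non-TFH cells. All mice carried floxed Ets1 alleles (Ets1 flox/flox). The WT groups had no Cre, and the KO groups also carried CD4-cre, which is driven by the CD4 promoter and acts from the CD4+CD8+ thymocyte stage, so that non-TFH cells and other T cells are targeted as well as TFH cells. Each of the 2 populations was sequenced in each genotype as 3 libraries, 12 in all. The age and sex of the mice and any immunisation are not given in the labels, which also do not say whether the 3 libraries of a group came from separate mice, so p-values measure the spread between these libraries, which may be technical.

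Glycolysis splits glucose into pyruvate in the cytosol, and lactate dehydrogenase then turns pyruvate into lactate, which restores NAD+ and leaves the cell through monocarboxylate transporters. The transcription factor HIF-1 is made of an oxygen-labile alpha subunit, encoded by Hif1a, and a stable beta subunit. When oxygen is available, prolyl hydroxylases of the Egln family mark the alpha subunit for destruction. When oxygen is scarce, HIF-1 binds short elements with the core ACGTG or GCGTG and activates many glycolytic enzymes, glucose and lactate transporters, the pyruvate gatekeeper Pdk1 and genes of mitophagy and cell survival. Activated T cells also use this programme when oxygen is available, and Hif1a and glycolysis have been studied in TFH cells.

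The sequences shown here are promoters of 6 members. These had the largest change between KO and WT TFH cells among members whose RefSeq promoter holds a core of the HIF element. Each sequence runs from 250 bases before to 50 bases after the RefSeq start site on build GRCm38.p6, in the direction of the gene. Capitals mark ACGTG or GCGTG on either strand, so that CACGT and CACGC are matches on the other strand. Adjacent matches can overlap, as CACGTG holds ACGTG on both strands. The genes are the lactate exporter Slc16a3 (chr11:120948817-120949116, plus strand), the prolyl hydroxylase Egln3 (chr12:54203825-54204124, minus strand), the mitophagy receptor Bnip3 (chr7:138909457-138909756, minus strand), the mitochondrial protein Higd1a (chr9:121857747-121858046, minus strand), the mTORC1 inhibitor Ddit4 (chr10:59951721-59952020, minus strand) and the ankyrin repeat gene Ankrd37 (chr8:45999801-46000100, minus strand). The RefSeq start lay 583 bases from the gene start in the deposited tables for Slc16a3, 204 bases for Higd1a and 0 bases for the other 4.
Slc16a3: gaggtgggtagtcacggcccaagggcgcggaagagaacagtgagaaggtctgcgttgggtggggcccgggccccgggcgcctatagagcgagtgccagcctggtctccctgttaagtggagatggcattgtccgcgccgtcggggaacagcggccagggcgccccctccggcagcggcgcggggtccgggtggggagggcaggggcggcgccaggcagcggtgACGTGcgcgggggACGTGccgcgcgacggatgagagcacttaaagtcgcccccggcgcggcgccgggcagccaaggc
Egln3: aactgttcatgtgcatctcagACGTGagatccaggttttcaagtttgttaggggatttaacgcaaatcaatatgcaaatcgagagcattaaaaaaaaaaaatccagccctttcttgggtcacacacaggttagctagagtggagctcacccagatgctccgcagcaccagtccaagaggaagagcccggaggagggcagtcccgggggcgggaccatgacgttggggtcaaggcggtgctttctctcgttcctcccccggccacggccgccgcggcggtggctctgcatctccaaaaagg
Bnip3: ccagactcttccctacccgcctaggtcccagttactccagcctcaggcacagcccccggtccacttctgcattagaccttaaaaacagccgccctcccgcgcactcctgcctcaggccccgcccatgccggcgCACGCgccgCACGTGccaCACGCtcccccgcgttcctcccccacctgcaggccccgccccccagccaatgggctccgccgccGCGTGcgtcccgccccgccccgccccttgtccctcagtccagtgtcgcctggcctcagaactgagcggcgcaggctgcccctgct
Higd1a: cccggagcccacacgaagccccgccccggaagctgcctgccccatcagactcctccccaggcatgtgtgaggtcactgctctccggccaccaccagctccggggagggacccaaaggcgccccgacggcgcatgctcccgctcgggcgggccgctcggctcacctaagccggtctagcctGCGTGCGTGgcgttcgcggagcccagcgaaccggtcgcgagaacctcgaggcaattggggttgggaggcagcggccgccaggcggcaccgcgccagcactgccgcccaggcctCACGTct
Ddit4: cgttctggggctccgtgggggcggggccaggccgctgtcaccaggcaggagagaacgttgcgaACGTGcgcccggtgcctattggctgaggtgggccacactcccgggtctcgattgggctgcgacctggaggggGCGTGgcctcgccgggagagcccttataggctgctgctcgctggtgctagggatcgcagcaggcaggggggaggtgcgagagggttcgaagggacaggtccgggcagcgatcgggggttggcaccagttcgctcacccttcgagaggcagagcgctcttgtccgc
Ankrd37: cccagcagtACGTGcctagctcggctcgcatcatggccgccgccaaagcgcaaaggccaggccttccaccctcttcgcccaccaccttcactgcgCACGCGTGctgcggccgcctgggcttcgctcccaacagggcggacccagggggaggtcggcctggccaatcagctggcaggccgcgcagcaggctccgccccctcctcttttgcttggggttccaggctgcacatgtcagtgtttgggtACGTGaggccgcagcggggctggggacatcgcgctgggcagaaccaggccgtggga
The number of matches was 5 in Bnip3, 4 in Ankrd37, 3 in Higd1a, 2 in Slc16a3, 2 in Ddit4 and 1 in Egln3. Counted from the start site, the pair in Slc16a3 began at positions -27 and -14 and the match in Egln3 at position -229. Of the 32 members with a promoter in the RefSeq table, 25 (78.1%) held a match. The share was 80% for the members higher in KO than in WT TFH cells (16 of 20) and 80% for those that did not pass the test there (8 of 10), against 43.8% of all 32851 promoters in the table. Some members changed more in TFH cells than Ddit4, the smallest change of the 6 shown, and are not among them. Pgam2 (4.61) and Tpi1 (1.94) held no match, and Slc2a3 (-1.51) and Ndrg1 (1.31) had no promoter in the RefSeq table. A match is a run of letters and not a measured binding site.

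The authors' deposited values are FPKM, which are fragments normalised to transcript length and to library size and allow levels of different genes to be compared per length. Values given here were rescaled between libraries by factors of 0.857 to 1.14. The deposited confidence limits implied a depth of 11.9 M to 15.5 M fragments (M, mega) per library. Each change is a difference of log2(FPKM + 1) with its standard error (SE) from limma, and the same scale underlies all folds, which understates the change of genes at low levels. A gene was called higher or lower at a Benjamini-Hochberg adjusted p under 0.05 over all 11128 features tested. Vegfa, the vascular growth factor, was too low to be tested, at no more than 0.715 FPKM in any library and listed at 0 in WT TFH replicate 1. A value listed as exactly 0 may be a failed estimate, since 236 tested features were listed at 0 in one library and reached 10 FPKM in another of the same group.

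The sorted populations carried their defining markers. Cxcr5 lay between 125 and 252 FPKM in the 6 TFH libraries and between 0 and 12.2 in the 6 non-TFH libraries, and Pdcd1, which encodes PD-1, was between 316 and 705 against 1.39 to 1.64. Ets1, the targeted gene, was not lower in the KO groups. It was at 410, 410.4 and 401 FPKM in WT non-TFH, 413, 408 and 379 in KO non-TFH, 170.2, 203 and 214 in WT TFH and 223, 270.1 and 265 in KO TFH libraries. A gene-level value does not resolve the floxed segment, so that the deletion could not be checked here. Markers of other cells moved with the groups. The CD8 T cell marker Cd8b1 had means of 11.75 FPKM in WT non-TFH, 101 in KO non-TFH, 8.41 in WT TFH and 39.9 in KO TFH libraries. In the same order, Cd8a had means of 0.0867, 0.258, 1.63 and 3.22. The NK cell marker Nkg7 had means of 4.84, 37.7, 140 (2 libraries) and 144. The NK markers Ncr1 (0.645, 1.51, 0.130 and 1.37) and Klrb1c, in a joint entry (1.34, 1.23, 10.3 and 2.96), moved less uniformly. The summed level of 20 macrophage and monocyte markers was 1684 to 2588 FPKM in WT TFH, 772 to 1187 in KO TFH, 44.2 to 92.5 in WT non-TFH and 141 to 179 in KO non-TFH libraries. That of 12 B cell markers was 538 to 932 in WT TFH, 338 to 414 in KO TFH, 6.11 to 12 in WT non-TFH and 17.3 to 23.9 in KO non-TFH libraries. None of the macrophage or B cell markers was at 0 in all WT TFH libraries, and 1 macrophage marker was at 0 in all KO TFH libraries. Of the 19 macrophage and monocyte markers tested, 16 were lower in KO than in WT TFH cells and 3 were higher. Itgam, which is also found on other myeloid cells, was at 1.17, 0.974 and 1.92 FPKM in WT TFH and 25.1, 30.8 and 27 in KO TFH libraries, a rise of 3.62 ± 0.17. The lysozymes Lyz2 (278 and 289 in 2 WT TFH libraries, 756, 470 and 598 in KO TFH libraries) and Lyz1 (9.36 and 11.3, against 64.1, 26.2 and 45) had their own value in all TFH libraries but WT TFH replicate 2, whose sum lacks them. Immediate early genes (14) summed to 2576 to 3079 in WT TFH against 969 to 1052 in KO TFH libraries, and to 629 to 762 in WT non-TFH against 2838, 1121 and 872 in KO non-TFH libraries, with replicate 1 apart. In TFH cells 19 cell cycle genes summed to 635 to 828 in WT against 1232 to 1417 in KO libraries. In non-TFH cells they summed to 159, 167 and 74.9 in WT against 249 to 278 in KO libraries. Of these 19 genes, 12 were higher in KO TFH cells and 10 in KO non-TFH cells, and none was lower. Their median changes were 0.77 and 0.91. Over all features 15.7% were higher in KO TFH cells and 11.8% in KO non-TFH cells. The Y-linked Ddx3y was at 33.4, 2.21 and 5.26 in WT TFH libraries, at 0 in all 3 KO TFH libraries and between 40.4 and 68.0 in the non-TFH libraries with a value. Xist, expressed from the inactive X chromosome of females, was at 0, 16 and 13.6 in WT TFH, 23.2, 16.6 and 14.8 in KO TFH, 19.6, 0.324 and 0.0827 in KO non-TFH and 1.81 and 0.163 in the 2 WT non-TFH libraries with a value. These sex-linked levels thus differed between groups and within the WT TFH and KO non-TFH groups, and KO non-TFH replicate 1 and WT TFH replicates 2 and 3 held both signals. The joint entry of the alpha globins Hba-a1 and Hba-a2 reached 1950 in WT TFH replicate 2 against 68.5 and 288 in the other WT TFH libraries. The part of these differences in the results on the members was not tested, and in bulk RNA a different share of cells of one type cannot be told apart from a different level per cell.

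KO TFH cells had more RNA of most glycolytic and hypoxia response genes than WT TFH cells. Of the 34 members tested, 21 were higher, 2 were lower and 11 did not pass, against 15.7% of all features higher and 15% lower. The median change of the members was 0.64 on the log2 scale, against 0.04 over all features. Since the members were chosen with earlier results of these data known, these counts are not an independent test of the list. Among the 31 members never listed at 0 in these TFH groups, 19 were higher and 2 were lower. Of the members never listed at 0, the enzyme Tpi1, the lactate exporter Slc16a3 and the HIF-responsive genes Higd1a, Egln3 and Bnip3 had the largest rises, whereas the glucose transporter Slc2a3 and the kinase Pdk1 fell. In 26 of the 34 members the KO and WT TFH values did not overlap, which was also the case for 37.9% of all features. Replicate 2 was the lowest KO TFH library for 16 of the 21 members that rose.

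Glycolytic enzymes rose in 11 of 18 cases in KO TFH cells, where 15.7% of all features were higher and 15% lower. The other 7 enzymes did not pass, none was lower, and the median change of the 18 enzymes was 0.61. Their summed level was 1536 to 1757 FPKM in WT non-TFH, 1462 to 1571 in KO non-TFH, 3444 to 3984 in WT TFH and 5513 to 6657 in KO TFH libraries. Gapdh had the highest level of the 35 members in every group. The summed level of the KO TFH libraries therefore lay above that of every WT TFH library. In non-TFH cells the lowest WT sum, 1536, was that of replicate 1, which lacks Pgk1. The other WT non-TFH sums were 1757 and 1596, above the KO non-TFH sums of 1482, 1571 and 1462. The non-TFH ranges thus overlapped only through the library without a Pgk1 value.

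Tpi1, the triose phosphate isomerase, rose the most among enzymes with a value above 0 in every library. It was at 103, 102 and 105 FPKM in WT TFH and 404, 344 and 458 in KO TFH libraries, a change of 1.94 ± 0.12 (log2, SE, limma adjusted p = 6.01e-07) or 3.84-fold. It was at 20.3, 18.2 and 20.9 in WT non-TFH and 36.4, 38.3 and 31.0 in KO non-TFH libraries, a rise of 0.80 ± 0.12. The 4 groups did not overlap, and WT TFH libraries lay within 3 FPKM of each other.

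Gapdh, which oxidises glyceraldehyde 3-phosphate and makes NADH, was at 1101, 895 and 942 FPKM in WT TFH and 1836, 1645 and 1923 in KO TFH libraries, a rise of 0.88 ± 0.10 (adjusted p = 5.15e-05). In non-TFH cells it was at 312, 323 and 309 in WT and 424, 451 and 368 in KO libraries. Each KO library lay above each WT library in both populations, and the change of 0.39 ± 0.10 in non-TFH cells passed the limma test (adjusted p = 0.0138). That call ended without KO non-TFH replicate 2, where the change was 0.33 (adjusted p = 0.0609), and under quantile normalization, where it was 0.23 (adjusted p = 0.157). Gapdh has 77 other genes with a near-identical stretch (95% identity over 300 bases), 74 of them pseudogenes, so that its reads may be split among copies. Of the 77, 3 are in the deposited tables, and their highest value in any library was 392 FPKM before rescaling. Eno1, Pgk1, Ldha, Bnip3 and Mif have 3 to 5 other genes with such a stretch. Gpi1, Pfkp, Tpi1, Pgam1, Pkm, Ldhb, Bnip3l, Higd1a and Ndrg1 have 1 each. For Pfkp it is the gene Pitrm1, and for Pfkp, Higd1a and Ndrg1 it is not a pseudogene. Stretches on either strand were counted, so these levels may be uncertain too, but whether reads were split was not tested.

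Pgk1, the X-linked phosphoglycerate kinase, makes the first ATP of the pathway. It was at 107, 100.1 and 118 FPKM in WT TFH and 218, 174 and 208 in KO TFH libraries, a rise of 0.88 ± 0.10 (adjusted p = 9.6e-05). In non-TFH cells it was at 80.8 and 82.3 in the 2 WT libraries with a value and at 67.4, 72.8 and 68.1 in KO libraries, a change of -0.23 ± 0.11 that did not pass (adjusted p = 0.196). The table of WT non-TFH replicate 1 ends within chromosome X before this gene. The ranges of WT and KO values were separate in both populations, with KO above WT in TFH cells and under WT in non-TFH cells.

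The phosphoglycerate mutases convert 3-phosphoglycerate to 2-phosphoglycerate. Pgam1, the form of most tissues, was at 123, 99.6 and 124 FPKM in WT TFH and 223, 196 and 230.3 in KO TFH libraries, a rise of 0.90 ± 0.10 (adjusted p = 5.91e-05). In non-TFH cells it was at 27.5, 28.5 and 26.3 in WT and 28.5, 30.4 and 29.3 in KO libraries, which did not pass. Pgam2, the muscle form, was listed at 0 in all 6 non-TFH libraries and in WT TFH replicates 1 and 3, with 6.23 FPKM in replicate 2. It was at 46.8, 44.1 and 48.3 in the KO TFH libraries, all above the WT TFH values, and passed the limma test (adjusted p = 0.000195).

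Aldoa, the main aldolase, moved in opposite directions in the 2 populations. It was at 421, 421 and 391 FPKM in WT TFH and 844, 670.4 and 801 in KO TFH libraries, a rise of 0.90 ± 0.09 (adjusted p = 1.87e-05). It was at 165, 174 and 161 in WT non-TFH and 99.2, 104 and 105 in KO non-TFH libraries, where it fell by 0.70 ± 0.09 (adjusted p = 0.000127). No KO library overlapped the WT libraries of its population.

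Ldha, the lactate dehydrogenase subunit that favours lactate, did the same. It was at 690, 628 and 653 FPKM in WT TFH and 1032, 878 and 1009 in KO TFH libraries, a rise of 0.56 ± 0.08 (adjusted p = 0.000202). It was at 243, 262 and 244 in WT non-TFH and 198, 195 and 189 in KO non-TFH libraries, where it fell by 0.36 ± 0.08 (adjusted p = 0.00507). Pkm, the pyruvate kinase that makes the second ATP, was at 552, 461 and 467 in WT TFH and 807, 689 and 844 in KO TFH libraries, a rise of 0.66 ± 0.09 (adjusted p = 0.000265). Pkm was at 211, 212 and 206 in WT non-TFH and 177, 177 and 167 in KO non-TFH libraries, all under the WT values, but that change of -0.27 ± 0.09 did not pass (adjusted p = 0.0582).

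Ldhb, the subunit that favours pyruvate, rose in both populations and more in non-TFH cells. It was at 22.7, 21.2 and 19.5 FPKM in WT non-TFH and 54.7, 57.1 and 50.8 in KO non-TFH libraries, a change of 1.32 ± 0.13 (adjusted p = 2.69e-05). It was at 36.3, 49 and 35.4 in WT TFH and 51.5, 64.2 and 60.9 in KO TFH libraries, a change of 0.55 ± 0.13 (adjusted p = 0.00928) that did not pass in a fit of the TFH groups alone (adjusted p = 0.0518). As a share of Ldha and Ldhb together, Ldhb made up 7.81% ± 0.64 (SD, n = 3) in WT non-TFH, 21.8% ± 0.75 in KO non-TFH, 5.79% ± 1.25 in WT TFH and 5.75% ± 1.03 in KO TFH libraries. The KO non-TFH libraries stood apart from the 9 others.

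Eno1, the main enolase, in an entry joined with Eno1b, changed in non-TFH cells and did not pass in TFH cells. Eno1b also had a separate entry, at no more than 107.5 FPKM before rescaling in any library, which was not added. It was at 275, 292 and 269 FPKM in WT non-TFH and 123, 137 and 120.2 in KO non-TFH libraries, where it fell by 1.13 ± 0.10 (adjusted p = 6.12e-06). It was at 438, 367 and 380 in WT TFH and 451, 407 and 499 in KO TFH libraries, which overlap, and the change of 0.19 ± 0.10 did not pass (adjusted p = 0.152). Eno3, the muscle enolase, was between 0 and 27.8 FPKM and did not pass in any comparison.

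The phosphofructokinases set the pace of the pathway. Pfkl, the liver form, was at 43.2, 47.8 and 37.1 FPKM in WT TFH and 72.7, 54.7 and 61.2 in KO TFH libraries, a rise of 0.55 ± 0.16 (adjusted p = 0.026). That call ended without WT TFH replicate 1 (adjusted p = 0.0508) or 3 (0.087) and without KO TFH replicate 1 (0.091) or 3 (0.0567), with array weights (0.215) and with quantile normalization (0.0821). In non-TFH cells Pfkl was at 27.7, 19.9 and 19.3 in WT and 13.7, 17.7 and 15.1 in KO libraries, all under the WT values, and the change of -0.49 ± 0.16 did not pass (adjusted p = 0.0585). Pfkp, the platelet form, was the most abundant of the 3 in TFH cells, at 148 ± 41.5 (SD) in WT and 191 ± 30.1 in KO libraries, and its change of 0.40 ± 0.24 did not pass. Pfkm, the muscle form, was at 4.27, 0 and 0 in WT TFH, 5.73, 0 and 6.11 in KO TFH, 7.74, 7.34 and 8.10 in WT non-TFH and 7.73, 10.7 and 11.6 in KO non-TFH libraries. Its entry overlaps that of Senp1 in all 12 libraries.

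The hexokinases trap glucose in the cell. Hk1 was the main form, with at least 96.9% of the summed Hk1 and Hk2 level in every library, and was at 47.4 ± 8.59 FPKM in WT TFH and 46.8 ± 4.12 in KO TFH libraries. Its change of -0.01 had a 95% interval of -0.30 to 0.29. Hk2, the inducible form, was at 0.807, 0.399 and 0.708 in WT TFH and 1.45, 1.36 and 1.16 in KO TFH libraries, a rise of 0.51 ± 0.16 (adjusted p = 0.0305). The KO libraries lay above the WT libraries, but the call ended in 7 of 21 alternatives, which included fits without WT TFH replicate 2 (change 0.40, adjusted p = 0.0689), KO TFH replicate 1 (0.47, adjusted p = 0.0696) or KO TFH replicate 2 (0.50, adjusted p = 0.0633). The other enzymes, Gpi1 (phosphoglucose isomerase) and Aldoc (the brain aldolase), did not pass in either population. Gpi1 changed by 0.65 ± 0.23 in TFH cells (adjusted p = 0.0554), and its KO values of 205, 136 and 238 FPKM all lay above the WT values of 126, 114 and 118.

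**Figure D1:**
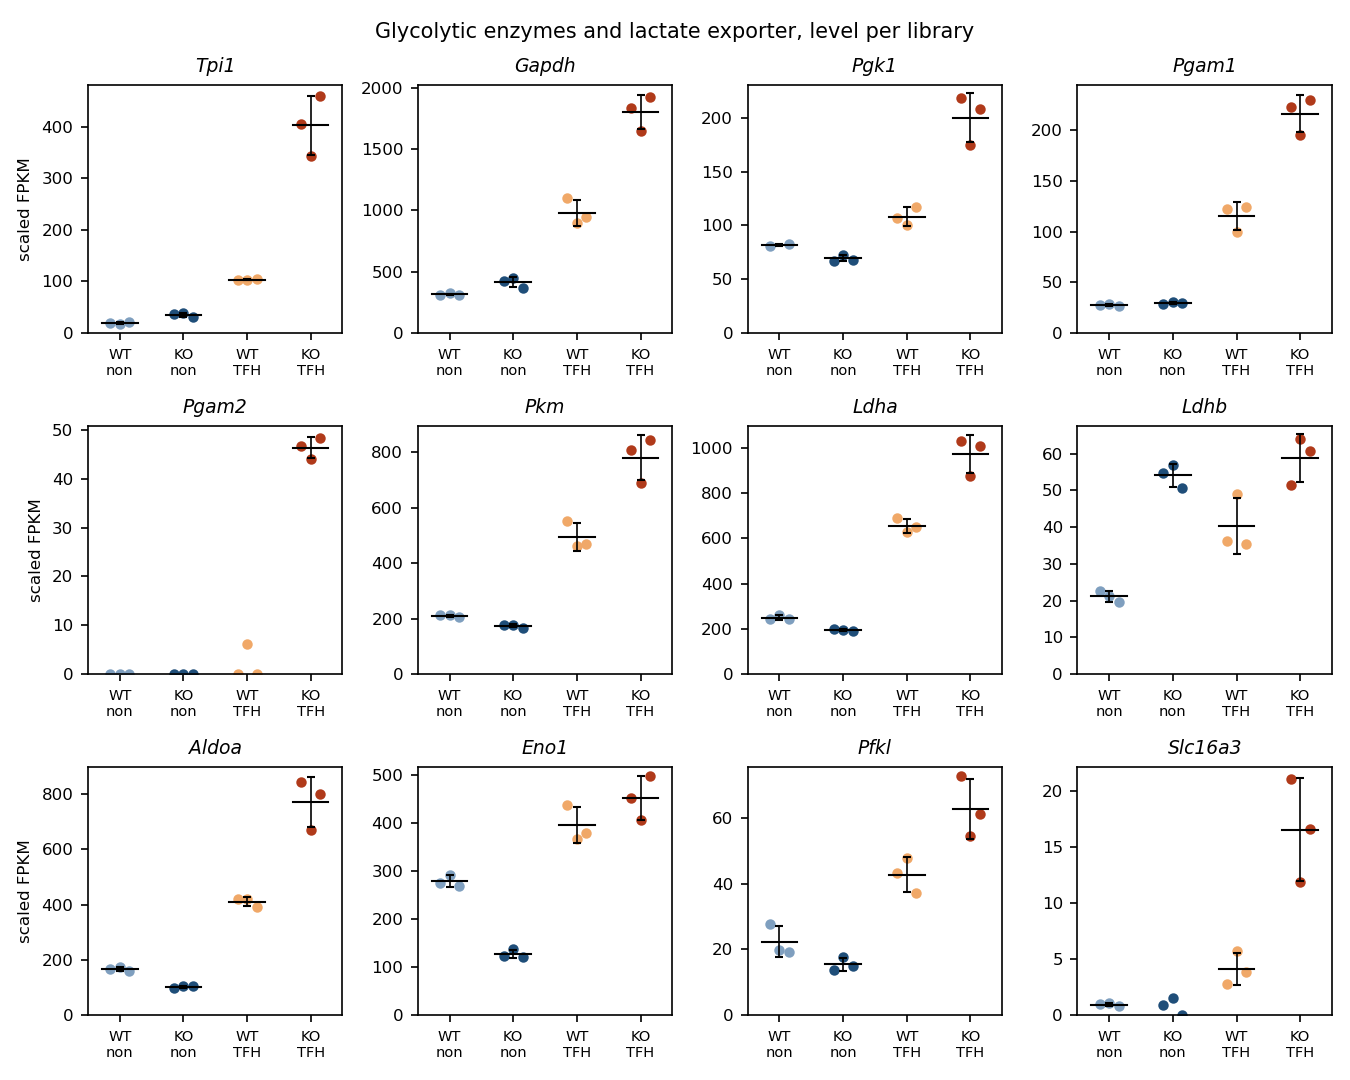
Level of 11 glycolytic enzymes and of Slc16a3 in each library (points, scaled FPKM on a linear axis from 0; WT and KO, non-TFH and TFH cells), with group mean (line) and SD (bar), both left out where a library is listed at 0. The KO TFH libraries lie above the WT TFH libraries for 11 of the 12 genes, all but Eno1; Aldoa, Eno1 and Ldha are lower in KO than in WT non-TFH libraries.

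Transport of glucose and lactate changed unevenly. Of the 5 genes in this group, 2 were higher in KO TFH cells, 2 were lower and 1 did not pass. Over all features 15.7% were higher and 15% lower. Slc2a3, the high-affinity glucose transporter GLUT3, fell in both populations. It was at 12.9, 15.1 and 15.2 FPKM in WT TFH and 4.65, 3.16 and 5.71 in KO TFH libraries, a change of -1.51 ± 0.17 (adjusted p = 6.81e-05). It was at 11.2, 11.9 and 12.3 in WT non-TFH and 2.39, 2.92 and 2.35 in KO non-TFH libraries, a change of -1.85 ± 0.17 (adjusted p = 1.41e-05). Every KO library lay under every WT library.

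Slc2a1, the glucose transporter GLUT1, was at 14.4, 15.7 and 11.8 FPKM in WT TFH and 29.2, 17.8 and 20.7 in KO TFH libraries, a rise of 0.64 ± 0.18 (adjusted p = 0.0172). The groups did not overlap, but the call ended without WT TFH replicate 3 (change 0.53, adjusted p = 0.0589) or KO TFH replicate 1 (0.44, adjusted p = 0.0527), in a fit of the TFH groups alone (adjusted p = 0.0791) and with array weights (adjusted p = 0.0740). In non-TFH cells Slc2a1 was at 13.4 ± 0.20 (SD) in WT and 15.8 ± 2.04 in KO libraries, which did not pass. Slc2a3 thus made up 46.7% ± 0.81 (SD, n = 3) of the summed Slc2a1 and Slc2a3 level in WT non-TFH and 50.9% ± 4.78 in WT TFH libraries, against 14.0% ± 1.69 in KO non-TFH and 16.8% ± 4.19 in KO TFH libraries. The lowest WT share was 45.8% and the highest KO share was 21.6%.

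Slc16a3, the lactate exporter MCT4, was at 2.80, 5.68 and 3.85 FPKM in WT TFH and 21.1, 11.9 and 16.6 in KO TFH libraries. It was at 0.959, 1.05 and 0.803 in WT non-TFH and 0.863, 1.55 and 0 in KO non-TFH libraries. The rise of 1.78 ± 0.33 in TFH cells (adjusted p = 0.00179) was 3.45-fold, and the KO TFH libraries stood above all others. With a pseudocount of 0.1 in place of 1 that change did not pass (adjusted p = 0.0863). Slc16a1, the lactate transporter MCT1, changed by 0.49 ± 0.21 in TFH cells and did not pass (adjusted p = 0.0941).

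Pdk1, the kinase that shuts the pyruvate dehydrogenase gate to mitochondria, fell in both populations, against the rise of enzymes in TFH cells. It was at 103, 104 and 98.9 FPKM in WT non-TFH, 24.2, 22.6 and 27.2 in KO non-TFH, 9.74, 12.2 and 13.9 in WT TFH and 5.15, 8.08 and 8.79 in KO TFH libraries. The 4 groups did not overlap. It fell by 2.01 ± 0.18 in KO against WT non-TFH cells (adjusted p = 7.81e-06) and by 0.65 ± 0.18 in TFH cells (adjusted p = 0.0153). The call in TFH cells ended without WT TFH replicate 3 (change -0.54, adjusted p = 0.0545), with array weights (adjusted p = 0.0585) and in a fit of the TFH groups alone (adjusted p = 0.104). Pdk3, another kinase of the same gate and no member, rose in KO TFH cells by 1.14 ± 0.12, from 24.2, 28.9 and 30.4 to 62.8, 60.4 and 63.9 FPKM.

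**Figure D2:**
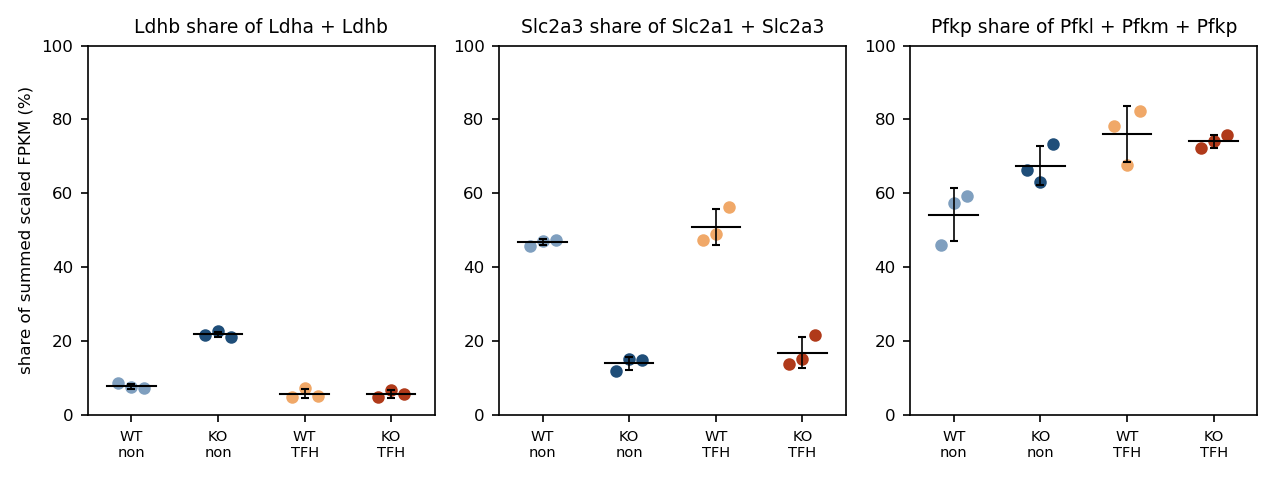
Share (%) of Ldhb in Ldha and Ldhb, of Slc2a3 in Slc2a1 and Slc2a3 and of Pfkp in the 3 Pfk genes, from scaled FPKM in each library (points) with group mean (line) and SD (bar, n = 3). Ldhb stands out in KO non-TFH libraries (21.8%), Slc2a3 is under 22% in all KO libraries, and Pfkp makes up 76.1% in WT TFH and 74.1% in KO TFH libraries.

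Of the oxygen-sensing genes, both prolyl hydroxylases were higher in KO TFH cells while Hif1a did not pass. Egln3, which HIF itself induces, was at 19.0, 9.82 and 13.5 FPKM in WT TFH and 52.3, 25.0 and 56.2 in KO TFH libraries, a rise of 1.55 ± 0.30 (adjusted p = 0.00215). It was at 1.18, 1.21 and 1.01 in WT non-TFH and 2.90, 2.25 and 1.83 in KO non-TFH libraries, a change of 0.63 ± 0.30 that did not pass (adjusted p = 0.176). KO values lay above WT values in both populations.

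Egln1, the main oxygen sensor of most cells, was at 2.76, 2.79 and 2.08 FPKM in WT TFH and 4.13, 4.61 and 4.67 in KO TFH libraries, a rise of 0.63 ± 0.13 (adjusted p = 0.00392) that did not pass in a fit of the TFH groups alone (adjusted p = 0.0915). Hif1a was at 171, 268 and 236 in WT TFH libraries and at 227 and 279 in the 2 KO TFH libraries with a value, which overlap. In KO TFH replicate 3 its entry was joined with that of Prkch. The change of 0.18 ± 0.18 had a 95% interval of -0.24 to 0.61, and in non-TFH cells the change was -0.02 ± 0.16.

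Among the further hypoxia response genes, Higd1a, Bnip3, Ndrg1 and Ddit4 each rose by more than 1 on the log2 scale in KO TFH cells. Of the 8 tested, 6 were higher in KO TFH cells, against 15.7% of all features. Their median change was 1.25 over the 8, and Bnip3l and P4ha1 did not pass. Higd1a, a mitochondrial inner membrane protein, was at 54.2, 41.9 and 45.7 FPKM in WT TFH and 229.6, 84.0 and 264 in KO TFH libraries. The KO libraries all lay above the WT libraries, but replicate 2 was far under the other 2. The change was 1.85 ± 0.37 (adjusted p = 0.00332). In non-TFH cells Higd1a was at 13.6, 15 and 13.4 in WT and 22.5, 12.1 and 16.4 in KO libraries, which overlap.

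Bnip3, a receptor that marks mitochondria for removal, was at 8.64, 11.6 and 12.5 FPKM in WT TFH and 34.7, 23.0 and 36.8 in KO TFH libraries, a rise of 1.43 ± 0.20 (adjusted p = 0.000269). It was at 3.79, 3.67 and 2.65 in WT non-TFH and 2.87, 3.15 and 3.28 in KO non-TFH libraries, which overlap. Its paralogue Bnip3l, with the same role, was at 64.9 ± 7.54 (SD) in WT TFH and 61.3 ± 5.45 in KO TFH libraries, and its change of -0.08 had a 95% interval of -0.32 to 0.17.

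Ndrg1 and Ddit4 rose in both populations. Ndrg1, a stress-induced gene, was at 1.06, 1.76 and 1.69 FPKM in WT TFH and 4.65, 5.53 and 5.34 in KO TFH libraries (change 1.31 ± 0.19, adjusted p = 0.000337). It was at 5.04, 4.74 and 4.08 in WT non-TFH and 11.8, 19.0 and 14.1 in KO non-TFH libraries (change 1.49 ± 0.19, adjusted p = 0.000148). KO libraries lay above WT libraries in both populations, and the KO TFH range overlapped that of WT non-TFH libraries.

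Ddit4 was at 9.38, 11.7 and 8.87 FPKM in WT TFH and 18.7, 21.7 and 33.5 in KO TFH libraries (change 1.19 ± 0.23, adjusted p = 0.00222). It was at 95.2, 83.3 and 88.3 in WT non-TFH and 181, 132 and 238 in KO non-TFH libraries (change 1 ± 0.23, adjusted p = 0.00851). The KO libraries were higher and more spread in both populations.

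Ankrd37, a HIF target whose function is little known, was at 4.86, 3.84 and 3.42 FPKM in WT non-TFH libraries, listed at 0 in all KO non-TFH and WT TFH libraries, and at 18.9, 15.6 and 21.2 in KO TFH libraries. It passed the limma test as higher in KO TFH (adjusted p = 3.1e-08) and lower in KO non-TFH cells (adjusted p = 1.74e-06). Its entry overlaps that of Ufsp2 in all 12 libraries, and whether the zeros are failed estimates was not tested. Mif, a secreted cytokine that HIF induces, was at 526, 490.5 and 510 in WT TFH and 927, 874 and 1009 in KO TFH libraries, a rise of 0.88 ± 0.09 (adjusted p = 3.5e-05). In non-TFH cells it was at 125, 111 and 108 in WT and 109, 108 and 90.9 in KO libraries, which overlap and did not pass. P4ha1, a collagen prolyl hydroxylase, changed by 0.28 ± 0.21 in TFH cells and did not pass.

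**Figure D3:**
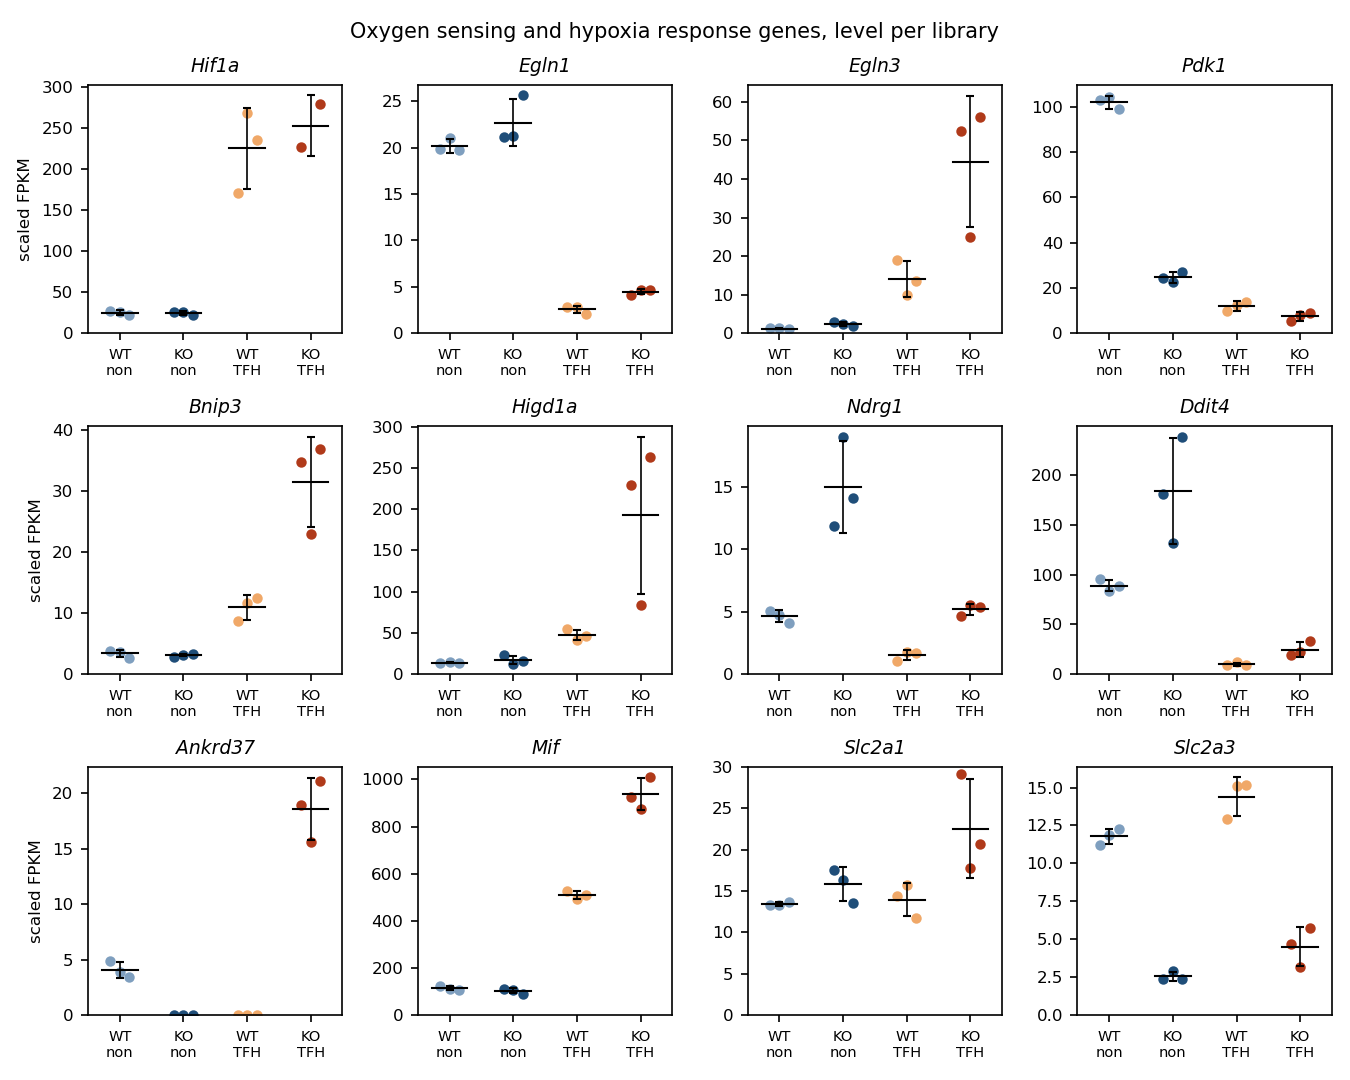
Level of the 3 oxygen-sensing genes, of Pdk1, Slc2a1 and Slc2a3 and of 6 further hypoxia response genes in each library (points, scaled FPKM on a linear axis from 0), with group mean (line) and SD (bar), both left out where a library is listed at 0. Egln3, Bnip3, Higd1a and Mif are highest in the KO TFH libraries, Hif1a is high in both TFH groups, and Pdk1 and Ddit4 are highest in non-TFH libraries.

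In non-TFH cells the members did not move together. Of 34 tested, 5 were higher in KO cells (Ndrg1, Ldhb, Ddit4, Tpi1 and Gapdh), 6 were lower (Pdk1, Slc2a3, Eno1, Aldoa, Ldha and Ankrd37) and 23 did not pass. The count of higher members was 8 in a fit of the non-TFH groups alone and 9 with array weights. Over all features 11.8% were higher and 8.56% lower. The median change of the members was -0.01, against 0.03 over all features. Among glycolytic enzymes alone, 3 were higher, 3 were lower and 12 did not pass. KO and WT values did not overlap for 21 of the 34 members, against 52.1% of all features.

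The difference between the change in TFH cells and that in non-TFH cells was tested in the same limma fit. It passed as a more positive change in TFH cells for 15 members and as a more negative one for 1, and 18 did not pass, against 6.87% and 10.6% of all features. The median difference was 0.72, against 0.01 over all features. Eno1 (1.33 ± 0.14), Aldoa (1.60 ± 0.12), Ldha (0.92 ± 0.11), Pkm (0.93 ± 0.13), Pgk1 (1.11 ± 0.15), Tpi1 (1.14 ± 0.16), Pgam1 (0.80 ± 0.14) and Pfkl (1.03 ± 0.23) were among the glycolytic enzymes that passed. Slc16a3 differed by 1.99 ± 0.47, Bnip3 by 1.52 ± 0.28, Pdk1 by 1.36 ± 0.25 and Mif by 1.04 ± 0.13. The difference for Pdk1 is that between a large fall in non-TFH cells and a small one in TFH cells. Pgam2 and Ankrd37 also passed, with groups listed at 0. Ldhb was the exception, with a rise 0.77 ± 0.19 smaller in TFH cells. For Slc2a3 (0.34, 95% interval -0.23 to 0.91), Ndrg1 (-0.18, -0.79 to 0.44) and Ddit4 (0.19, -0.56 to 0.93) the difference did not pass. Nor did it for Higd1a (1.63, 0.43 to 2.82, adjusted p = 0.0557) or Egln3 (0.92, -0.05 to 1.89), although only the change in TFH cells had passed for these genes.

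**Figure D4:**
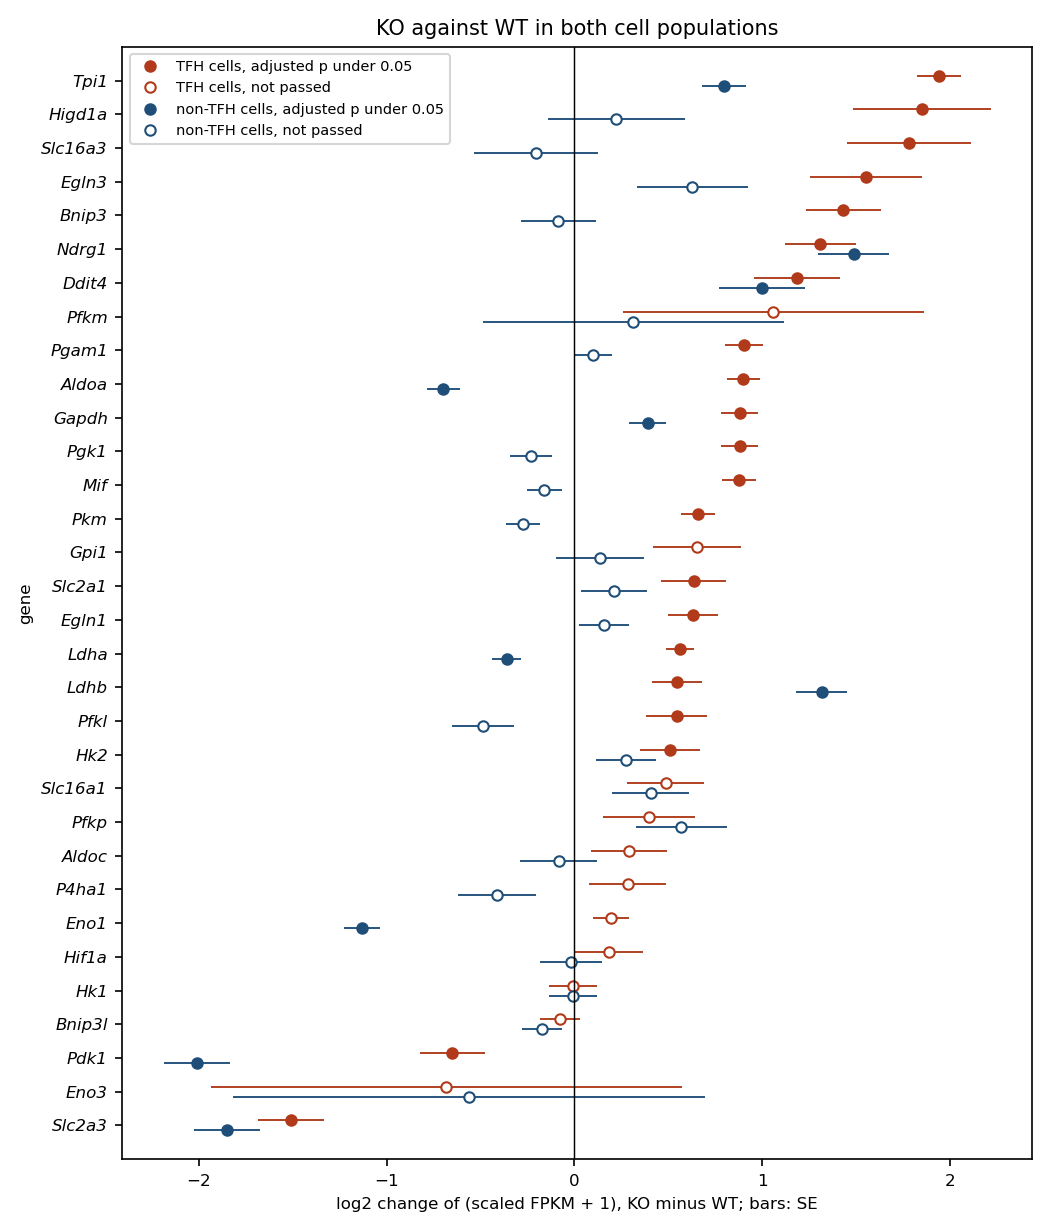
Change of 32 members between KO and WT libraries (log2 of scaled FPKM + 1, points; bars are the limma SE; filled points passed at adjusted p under 0.05), in TFH cells (red) and non-TFH cells (blue). Tpi1 (1.94) and Slc2a3 (-1.51) are the ends of the TFH changes, and Aldoa and Ldha have filled points on opposite sides of 0; Pgam2 and Ankrd37, with groups listed at 0, and Vegfa, not tested, are not drawn.

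TFH cells had a different level from non-TFH cells for most members in both genotypes. In WT mice 22 of 34 were higher in TFH cells, 6 were lower and 6 did not pass, where 35.4% of all features were higher and 32.1% lower. In KO mice 26 were higher, 4 were lower and 4 did not pass, against 33.5% and 33.6%. The median change was 0.85 in WT mice and 1.82 in KO mice, against 0.05 and 0.02 over all features. Without rescaling, the median of all features moved to 0.37 in WT and 0.27 in KO mice, so that changes between TFH and non-TFH cells are relative to that shift. Both comparisons involve the sort gates, with the macrophage, B cell and cell cycle marker sums and the sex-linked levels given above. Of 19 cell cycle genes, 18 were higher in TFH cells of WT mice and 19 in those of KO mice.

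On the log2(FPKM + 1) scale Hif1a had the largest rise of the members from non-TFH to TFH cells in WT mice. That ranking did not hold for ratios of mean FPKM, since the added 1 lowers the change of Egln3 and Aldoc more. By ratio, Egln3 (1.13 to 14.1 FPKM) and Aldoc (0.509 to 5.22) rose more than Hif1a (24.9 to 225). Hif1a was at 27.1, 25.6 and 22.1 FPKM in WT non-TFH and 25.8, 26 and 22 in KO non-TFH libraries, against at least 171 in each TFH library with a value. The change was 3.10 ± 0.16 in WT mice (8.59-fold) and 3.31 ± 0.18 in KO mice (9.89-fold). Egln3 rose by 2.78 ± 0.30 in WT and 3.70 ± 0.30 in KO mice, while Egln1 fell by 2.59 ± 0.13 and 2.11 ± 0.13. Its WT non-TFH values of 19.8, 21 and 19.7 and KO non-TFH values of 21.2, 21.3 and 25.6 all lay above the TFH values. The 2 prolyl hydroxylases were therefore in opposite order, with Egln1 above Egln3 in each non-TFH library and Egln3 above Egln1 in each TFH library.

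Among the enzymes, Tpi1 (2.33 ± 0.12 in WT and 3.47 ± 0.12 in KO mice), Pgam1 (2.03 ± 0.10 and 2.84 ± 0.10), Gapdh (1.63 ± 0.10 and 2.12 ± 0.10) and Ldha (1.39 ± 0.08 and 2.32 ± 0.08) rose in TFH cells of both genotypes. Pfkp rose by 1.99 ± 0.24 and 1.82 ± 0.24, and Aldoc, at no more than 0.715 FPKM in non-TFH libraries, by 2.02 ± 0.20 and 2.39 ± 0.20. Eno1 rose by 0.50 ± 0.10 in WT and 1.82 ± 0.10 in KO mice, and Pgk1 by 0.40 ± 0.11 and 1.51 ± 0.10. Under quantile normalization Eno1 (0.03, adjusted p = 0.816) and Pgk1 (0.08, adjusted p = 0.521) no longer passed in WT mice. Mif rose by 2.14 ± 0.09 and 3.18 ± 0.09, and Bnip3 by 1.44 ± 0.20 and 2.96 ± 0.20. Of the genes that passed with smaller changes, Hk1 rose by 0.35 ± 0.13 in WT mice, a call that ended without WT TFH replicate 1 (0.21, adjusted p = 0.119) or WT non-TFH replicate 1 (0.36, adjusted p = 0.0564) or 3 (0.28, adjusted p = 0.11), under quantile normalization (0.22, adjusted p = 0.132), in a fit of the WT groups alone (adjusted p = 0.0728) and with array weights (adjusted p = 0.0530).

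Members lower in TFH cells were Pdk1 (-3.01 ± 0.18 in WT and -1.65 ± 0.18 in KO mice), Ddit4 (-3.04 ± 0.23 and -2.85 ± 0.23), Ndrg1 (-1.17 ± 0.19 and -1.35 ± 0.19) and Egln1 in both genotypes. Pfkm (-2.33 ± 0.80) and Ankrd37 were lower in WT mice alone by this test. The call for Pfkm rests on libraries listed at 0 and ended when any of 5 single libraries was left out, with adjusted p from 0.0550 to 0.0873 (each WT non-TFH replicate, and WT TFH replicates 2 and 3). Ankrd37 was higher in KO TFH than in KO non-TFH cells (adjusted p = 2.21e-09). Ldhb rose from non-TFH to TFH cells in WT mice (0.88 ± 0.13, adjusted p = 0.000106) and did not pass in KO mice (0.11 ± 0.13, adjusted p = 0.477).

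**Figure D5:**
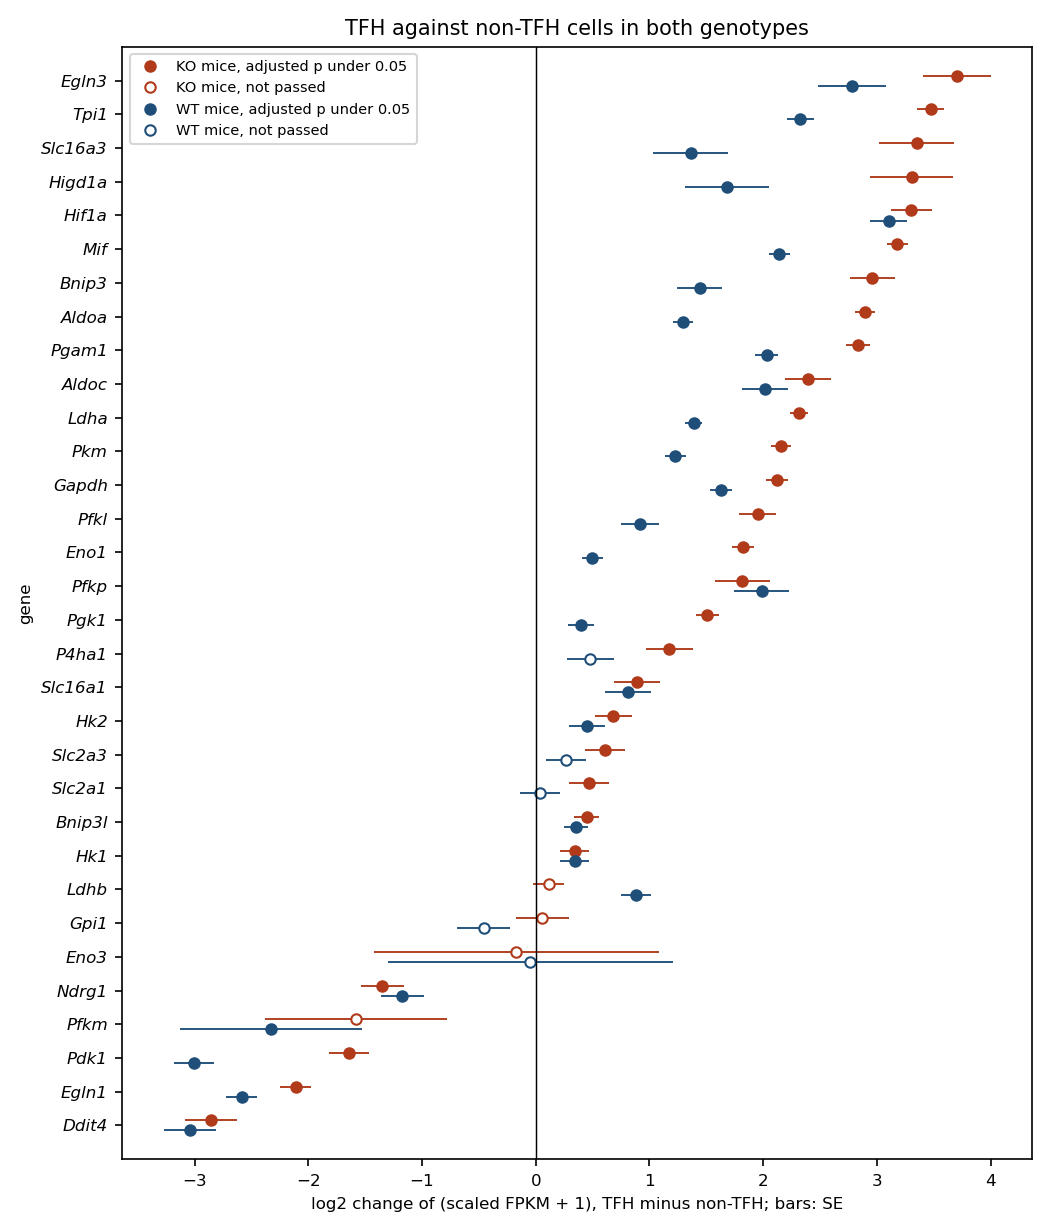
Change of 32 members between TFH and non-TFH libraries (log2 of scaled FPKM + 1, points; bars are the limma SE; filled points passed at adjusted p under 0.05), in KO mice (red) and WT mice (blue). Hif1a, Egln3, Tpi1 and Mif are among the genes more than 2 higher in TFH cells of both genotypes, and Ddit4 and Egln1 are more than 2 lower; Pgam2, Ankrd37 and Vegfa are not drawn.

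The other genes of these pathways came from separate lists, also chosen with earlier results of these data known. Counted over genes with an entry of their own, other glycolysis isoforms and regulators gave 3 higher and 3 lower of 18 tested in KO against WT TFH cells. That was 16.7% each, close to the 15.7% higher and 15% lower of all features, and the median change was 0.05. Pfkfb4, which makes the phosphofructokinase activator fructose 2,6-bisphosphate, fell by 1.96 ± 0.21, from 4.43, 4.01 and 6.04 FPKM to 0.571, 0.808 and 0.137. The myeloid hexokinase Hk3 fell by 1.53 ± 0.30 and the transporter Slc2a6 rose by 1.23 ± 0.17. In non-TFH cells 3 of the 18 were higher and 1 lower, where 11.8% of all features were higher and 8.56% lower. The neuronal enolase Eno2 (2.30 ± 0.25) and Bpgm (1.51 ± 0.17), which makes 2,3-bisphosphoglycerate, rose there, and Pfkfb3 (-0.89 ± 0.19) fell.

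None of the 6 pentose phosphate pathway genes tested passed in KO against WT TFH cells. Of 29 genes of pyruvate dehydrogenase and the tricarboxylic acid cycle, 10 (34.5%) were higher and 1 (3.45%) was lower, with a median of 0.25. Over all features 15.7% were higher and 15% lower. Besides Pdk3, the citrate synthase Cs rose from 81.7, 81.4 and 84.3 FPKM to 141, 128 and 137 (0.71 ± 0.08), and the succinyl-CoA ligase subunit Suclg1 rose by 0.59 ± 0.11. For Cs and Pdk3 every KO TFH library lay above every WT TFH library.

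Of 33 other genes of the hypoxia pathway, 11 (33.3%) were higher and 4 (12.1%) lower in KO TFH cells, with a median of 0.16. Over all features 15.7% were higher and 15% lower. Epas1, which encodes the HIF-2 alpha subunit, was at 0.289, 0.353 and 0 FPKM in WT TFH and 17.3, 7.87 and 10.6 in KO TFH libraries, a change of 3.36 ± 0.30 (adjusted p = 9.87e-06). The transferrin receptor Tfrc rose by 1.58 ± 0.21, and the haem oxygenase Hmox1, which is also one of the macrophage markers summed above, fell by 1.93 ± 0.35. Among 23 regulators of the MYC, mTORC1 and AMPK pathways, 3 (13.0%) were higher and 4 (17.4%) lower, close to the shares of all features. Irf4 fell by 1.68 ± 0.21, Foxo1 fell by 0.89 ± 0.15 and the MYC partner Max rose by 1.10 ± 0.19.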

How the data were processed

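The deposited values are FPKM per gene, made by the authors with one Cufflinks table per library; FastQC, cutadapt, TopHat2, Bowtie2, Cufflinks and Cuffdiff and build mm10 are named in the submitters' processing notes, and their versions were not stated in the sources used here. Libraries were stranded mRNA libraries, per the labels' protocols. FPKM are not counts, so no count test was run. Rows were matched by gene symbol. Entries that join several genes were kept as joint features. Libraries were rescaled by the median ratio over 7174 features. Features with at least 1 FPKM in at least 3 libraries entered limma 3.58.1 in R 4.3.3, on log2(FPKM + 1) with a pseudocount of 1, one mean per group over all 12 libraries and robust moderation with trend. Depth was estimated from the deposited confidence limits at unnamed loci over 1500 bases. The members and the gene lists were chosen with earlier results of these data known. Members named with every library's value were those that passed and were among the 10 largest changes of the members in a comparison between 2 groups, or passed in the test of TFH against non-TFH changes. Counts and sums of other lists use genes with an entry of their own, a choice made after joint entries were seen to dominate sums. Promoters came from RefSeq, and near-identical stretches from BLAST+ 2.17.0 on GENCODE transcripts. The test was checked on simulated data. The alternatives were other scalings, pseudocounts, filters, fits and leaving out each library.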

Additional observations from a re-analysis of the deposited data

Results flagged for a closer look

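For 16 members the KO against WT change differed between TFH and non-TFH cells in a direct test of that difference (limma, adjusted p under 0.05 over all features). Pgam2 and Ankrd37 had groups listed at 0 and are left out here. The values for the other 14 are the change in TFH cells minus that in non-TFH cells on the log2 scale. Among glycolytic enzymes they were 1.60 for Aldoa, 1.33 for Eno1, 1.14 for Tpi1, 1.11 for Pgk1, 1.03 for Pfkl, 0.93 for Pkm, 0.92 for Ldha, 0.80 for Pgam1, 0.49 for Gapdh and -0.77 for Ldhb. They were 1.99 for Slc16a3, 1.36 for Pdk1, 1.52 for Bnip3 and 1.04 for Mif. The difference for Gapdh (adjusted p = 0.0302) no longer passed in 12 of 22 alternatives. Among these were leaving out any one of WT non-TFH replicates 1, 2 and 3, KO non-TFH replicate 3, WT TFH replicates 2 and 3 and KO TFH replicates 1 and 3, where it lay between 0.41 and 0.50 with adjusted p from 0.0544 to 0.0720. The difference for Slc16a3 no longer passed with a pseudocount of 0.1 (2.93, adjusted p = 0.116). The other 12 passed in each of their 22 alternatives.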

How the results depend on the processing

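Over all alternatives for single members, 3465 values kept their direction and side of the threshold, 69 calls were lost, 43 were gained and 2 reversed direction. The reversals came with quantile normalization, for Eno1 in KO against WT TFH cells (-0.0897, adjusted p = 0.495) and Hk2 in TFH against non-TFH cells of WT mice (-0.0152, adjusted p = 0.941), and neither value passed; the cause was not tested. The count of members higher in KO TFH cells ran from 18 to 22 when single libraries were left out and was 18 both in a fit of only the groups compared and with array weights, and the count of lower members ran from 1 to 2. The latter was 1 without WT TFH replicate 3, 1 in a fit of only the groups compared and 1 with array weights, because Pdk1 did not pass. The count higher in KO non-TFH cells, 5 in the fit of all groups, was 8 in a fit of only the groups compared and 9 with array weights. With a replicate block 20 members were higher in KO TFH cells, with Hk2 no longer called (adjusted p = 0.0534), against 21 without it; same-numbered libraries did not deviate together (correlations from -0.03 to 0.06), so this is a fit by number alone. Blocking within genotype left 21 members higher in TFH cells of WT mice. With 3 libraries a group, an exact permutation test of a single gene cannot go below 0.1, so calls rest on the variance that limma shares between genes.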
